A study of Mus musculus with 60 samples.

Results

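The MCM2-2A line and the WT line of mouse embryonic stem cells (mESCs) were compared 60 h after retinoic acid (RA) was added. The comparison used 6 of the 60 RNA-seq libraries of the series, 3 of the Ctrl MCM2-2A group and 3 of the Ctrl group at T60, taken by their labels and not by any measured value. Both lines derive from E14JU mESCs (129/Ola), and both carry POLE4-dTAG, a degradation tag on POLE4, a small subunit of the leading-strand DNA polymerase epsilon that also binds histones H3 and H4. Ctrl cells had received DMSO, so POLE4 was not degraded in any of these 6 cultures. MCM2-2A cells carry in addition a mutation of MCM2, a subunit of the replicative helicase, that prevents its binding of histones. Cells of both lines were treated for 24 h in serum and LIF, and LIF was then replaced by RA, with samples taken at 0 h (T0), 12 h, 24 h and 60 h of RA. Each line is 1 clone, and the tag was put into WT and MCM2-2A cells separately, so that the effect of the mutation and a difference between clones cannot be told apart. Hereafter the Ctrl groups of the 2 lines are called WT and MCM2-2A.

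Parental histones are handed from the old to the new DNA at the replication fork, where MCM2 favours the lagging and POLE3-POLE4 the leading strand, and with them modifications that mark active or silent genes. LIF keeps mESCs in naive pluripotency, held by a network of factors such as OCT4 (Pou5f1), NANOG and ESRRB. RA enters the nucleus and activates heterodimers of RA and retinoid X receptors on DNA, which switch on RA-metabolising enzymes, Hox genes and neural genes, while the pluripotency network is shut down.

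The promoter sequences of 3 genes on which the results turn are shown for orientation, as the 250 bases before the RefSeq start in GRCm38.p6, with letters matching a searched motif in capitals. Rarb encodes RA receptor beta, a direct target of RA, and its promoter (chr14:16575477-16575726, minus strand) held the RA direct repeat, searched on both strands as GTTCA, 6 bases of any kind and GTTCA, which was found in 22 of 32851 promoters (0.067%). The motif began 52 bases before the start. Pou5f1 (chr17:35505782-35506031, plus strand) held AGGTCA, a nuclear receptor core site, 33 bases before the start, as did 14% of the promoters on either strand. Nanog (chr6:122707239-122707488, plus strand) held the OCT4-SOX2 composite motif, searched as CATTGT, 1 base of any kind and ATGC, on the other strand and 72 bases before the start. This motif was found in 19 promoters (0.0578%). The Nanog sequence also held AGGTCA on the other strand near its far end, not in capitals. Of 13 naive pluripotency genes, 10 had a promoter in the table. Among these, 4 held the core site, 1 the composite motif and 0 the direct repeat. A match describes the letters and not binding.
Rarb: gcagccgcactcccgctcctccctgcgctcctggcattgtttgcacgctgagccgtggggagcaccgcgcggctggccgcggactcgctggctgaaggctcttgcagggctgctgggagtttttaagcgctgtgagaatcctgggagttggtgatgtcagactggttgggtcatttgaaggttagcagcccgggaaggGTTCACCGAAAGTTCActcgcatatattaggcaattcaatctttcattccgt
Pou5f1: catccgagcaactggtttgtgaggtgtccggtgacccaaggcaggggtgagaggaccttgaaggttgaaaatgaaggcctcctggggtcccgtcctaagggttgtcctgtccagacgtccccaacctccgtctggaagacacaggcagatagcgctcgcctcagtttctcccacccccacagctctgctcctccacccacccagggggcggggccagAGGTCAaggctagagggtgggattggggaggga
Nanog: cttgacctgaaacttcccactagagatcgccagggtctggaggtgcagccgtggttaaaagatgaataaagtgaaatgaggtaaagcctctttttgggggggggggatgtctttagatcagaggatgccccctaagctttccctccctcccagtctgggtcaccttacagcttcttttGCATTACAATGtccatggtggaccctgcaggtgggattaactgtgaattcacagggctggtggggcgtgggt

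Libraries held between 10461077 and 16674461 counts in WT and between 18847248 and 29186625 in MCM2-2A, so that the mutant line was sequenced deeper. Replicate libraries of a line correlated more closely (r between 0.993 and 0.9943 in WT and between 0.9955 and 0.9969 in MCM2-2A, across features, on log2 CPM + 1) than libraries of different lines (0.9753 to 0.9793). Repeat subfamilies took 5.85 to 6.1% of counts in WT and 6.61 to 7.26% in MCM2-2A, without overlap, and mitochondrial transcripts took 0.703 to 1.13% and 0.803 to 1.22%. No 2 libraries agreed within sampling noise. The study's methods call the 3 libraries of a group biological replicates, and all of a line come from 1 clone, so p-values measure the spread between samples of a clone. RNA came from whole cultures, in which fewer cells of a type and less RNA per cell cannot be told apart.

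Of 18056 features tested, 3051 were differentially expressed (DE) between the lines at 60 h, 1620 higher and 1431 lower in MCM2-2A (edgeR's quasi-likelihood test with Benjamini-Hochberg adjusted p below 0.01 and a log2 fold change over 0.58 in size). Genes on chromosomes 11, 14 and 15 differed along most of a chromosome or over a long stretch of it and are described separately. The median log2 difference was -0.55 over 1387 genes of chromosome 11, 0.29 over 574 genes of chromosome 14 and 0.47 over 689 genes of chromosome 15, while the other autosomes and the X had medians between -0.11 and 0.14. Before RA the medians of these 3 chromosomes were -0.48, 0.24 and 0.56. On chromosome 14 the shift was largest between 50 and 70 Mb, where the 5 Mb windows had medians between 0.79 and 0.98. The share of chromosome dose in these medians was not tested. Outside these 3 chromosomes, 14548 genes were tested, and 1118 were higher (7.68%) and 812 lower (5.58%) in MCM2-2A, with a median difference of 0.00105. These shares are the background for list members outside the 3 chromosomes. On chromosomes 11, 14 and 15, 454 (17.1%) were higher and 606 (22.9%) lower of 2650. Library values of the lines did not overlap for 7191 genes outside the 3 chromosomes (49.4%), so that absence of overlap alone is common here.

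In MCM2-2A, Mcm2 RNA was lower than in WT. Mcm2 (chromosome 6, 88883474 to 88898780 in GRCm38) was at 294, 255 and 286 CPM (counts scaled to library size) in WT and at 166, 153 and 156 in MCM2-2A, a log2 difference of -0.82 ± 0.066 (SE, n = 3 and 3, edgeR adjusted p = 1.96e-07). The difference was similar before RA (-0.70) and did not change past the thresholds. A stretch of chromosome 6 beside it, between 90 and 95 Mb, had a median of -0.77 at 60 h and -0.76 at T0 over 32 genes, which are counted among the genes outside the 3 chromosomes, while the window from 85 to 90 Mb that holds Mcm2 had a median of -0.0079. Whether Mcm2 shares the shift of its neighbours was not tested. The point mutation itself is not seen in these counts. Pole4 was at 23.6, 21.8 and 23.5 CPM in WT and at 20.6, 19.9 and 19 in MCM2-2A, a difference of -0.22 that was not DE (edgeR adjusted p = 0.0495).

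Genes of naive pluripotency were higher in MCM2-2A after 60 h of RA. Of 12 naive genes tested outside chromosomes 11, 14 and 15, 9 were higher and 0 lower, with a median log2 difference of 1.03. Pou5f1, the core pluripotency factor whose promoter is shown above, was at 37.3, 24.9 and 27.7 CPM in WT and at 112, 87.7 and 96 in MCM2-2A. Every mutant library lay above every WT library, and the log2 difference was 1.70 ± 0.12 (SE, edgeR adjusted p = 7.84e-08). Nanog was at 20.5, 20.5 and 17.3 CPM in WT and at 94.8, 72.9 and 69.7 in MCM2-2A (log2 difference 2.02 ± 0.12, edgeR adjusted p = 1.06e-08). Pramel7, which protects naive cells from DNA methylation, differed by 1.83, Tfcp2l1, a factor of the naive network, by 1.26, and Prdm14, which represses methyltransferase genes, by 1.24. The call of Prdm14 was lost without WT replicate 1 or 3 (edgeR adjusted p at most 0.0236). The transcription factor gene Sox2, which is also expressed in neural progenitors, was at 28.2, 31.3 and 27.3 CPM in WT and at 32.1, 20.6 and 21.7 in MCM2-2A, with overlap between the lines and no call (edgeR adjusted p = 0.2).

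Before RA the naive genes did not show this difference. At T0, 0 of these 12 genes were higher and 3 were lower in MCM2-2A (median -0.077), against 8.57% higher and 7.42% lower among all 14426 genes tested outside the 3 chromosomes. Pou5f1 stood at 841 ± 20.4 CPM (SD, n = 3) in WT and at 945 ± 85.8 in MCM2-2A at T0. At 24 h it stood at 382 ± 20.3 and 479 ± 33.4, and at 60 h at 29.95 ± 6.54 and 98.7 ± 12.55. Nanog was at 457 ± 29.2 CPM (SD) in WT and 416 ± 12.7 in MCM2-2A at T0, and at 159 ± 23.2 and 181 ± 15.4 at 24 h. Both lines lost these transcripts over the whole course, and the lines stood farthest apart, as a ratio, at 60 h. The change of the line difference from T0 to T60 passed the thresholds upward for 7 and downward for 0 of the 12 genes, against 4.76% and 4.41% of 15746 genes outside the 3 chromosomes.

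Further genes of pluripotent cells moved in the same direction. Of 17 tested outside the 3 chromosomes, 10 were higher and 0 lower (median 0.61). Unlike the naive genes, 4 of these were higher and 0 lower already at T0 (median 0.13). The change of the line difference was upward for 5 and downward for 0. Tcl1, a cofactor of AKT kinases expressed in mESCs, had 14, 2 and 4 reads in WT and 81, 90 and 59 in MCM2-2A (log2 difference 2.63). It passed the filter on low counts through the MCM2-2A libraries and leaves the test when 10 counts are required in every library. Jam2, a junctional adhesion molecule, was at 5.87, 5.17 and 5.66 CPM in WT and at 35.1, 29.5 and 27.1 in MCM2-2A, a log2 difference of 2.44 ± 0.12 (SE, edgeR adjusted p = 3.45e-09), while at T0 it differed by -0.19. Esrrb, an orphan nuclear receptor of the naive network, was at 14.1, 15.3 and 15.8 CPM and at 57.5, 43.4 and 42.8, a difference of 1.67. Of 5 formative genes tested outside the 3 chromosomes, which mark the step after naive pluripotency, 0 were higher and 1, Foxd2, was lower (-1.21).

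**Figure D1:**
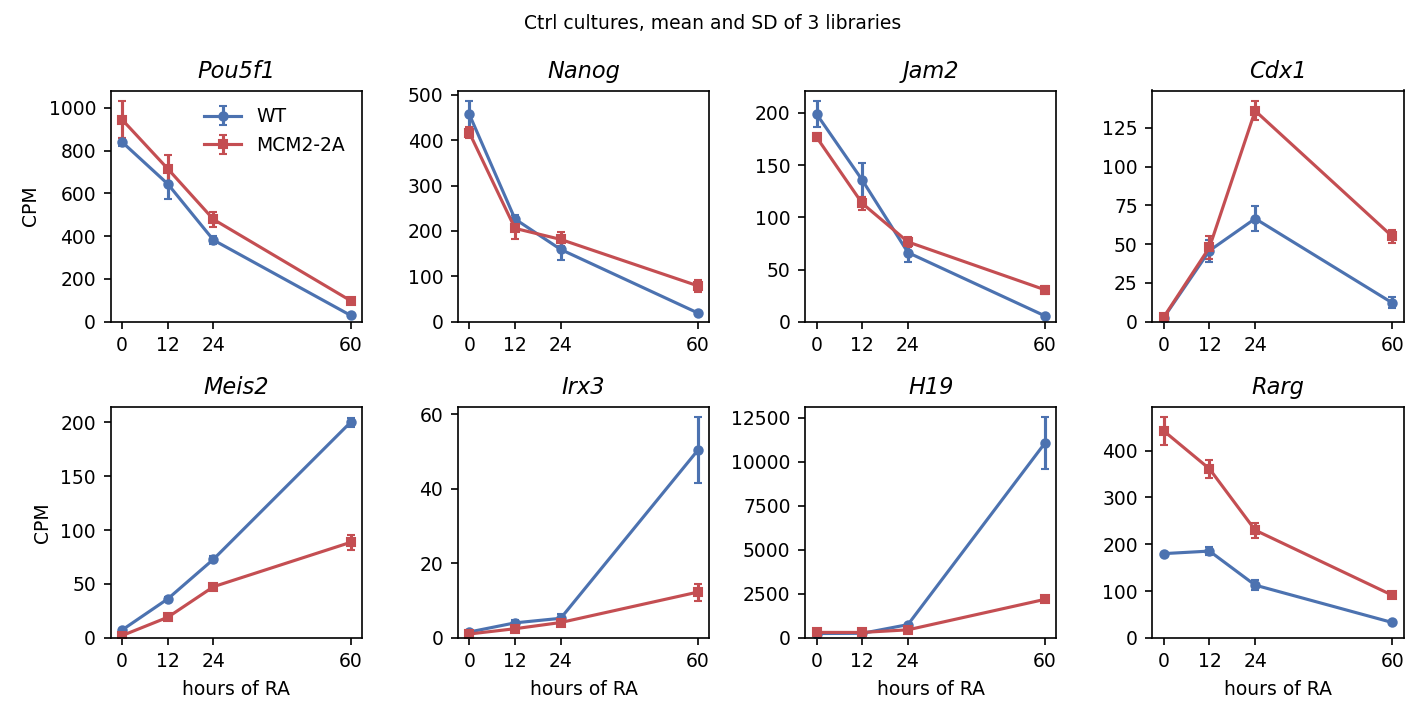
CPM (vertical axes, from 0) of 8 genes at 0, 12, 24 and 60 h of RA in WT (blue circles) and MCM2-2A (red squares), as mean and SD of 3 libraries. Pou5f1, Nanog and Jam2 fell in both lines and ended higher in MCM2-2A, and Meis2, Irx3 and H19 ended lower in MCM2-2A. Cdx1 was higher in MCM2-2A at 60 h (55 against 12.2 CPM), and Rarg, on chromosome 15, was higher at 0 h and at 60 h.

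Genes were also grouped by their RA response, taken from the dPOLE4 cultures of the WT line at T0 and T60. These libraries were used in no other comparison here except that of dTAG cultures. Of 2811 RA-repressed genes outside the 3 chromosomes, 384 (13.7%) were higher and 74 (2.63%) lower in MCM2-2A at 60 h, with a median of 0.16. Of 3963 RA-induced genes, 320 (8.07%) were higher and 471 (11.9%) lower, with a median of -0.11. Of 7362 genes without a called RA response, 333 (4.52%) were higher and 261 (3.55%) lower. At T0 the medians of the RA-repressed and RA-induced genes were 0.0289 and 0.0111. The difference was larger for genes with larger responses. The 61 genes that RA lowered by more than 4 on the log2 scale had a median line difference of 1.24 and 95.1% of them were positive, while at T0 their median was -0.16. The next group, lowered by 3 to 4, had a median of 0.78. At the other end, the 63 genes that RA raised by more than 4 had a median of -0.53, and 25.4% of them were positive. At T0 these genes had a median of 0.34, and the 168 genes raised by 3 to 4 one of 0.69. The groups by size of response held only genes that were also tested at T0. Genes low in WT at T0 can pass the count filter there through MCM2-2A, which can raise these T0 medians. A change of sign between the times can therefore not be read from them. The classes rest on the WT line, and no class was taken from the MCM2-2A line. A level at T60 that is particular to the WT clone enters both the RA response and the line difference, with opposite signs. Part of the gradient can follow from this grouping, and how much was not tested.

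**Figure D2:**
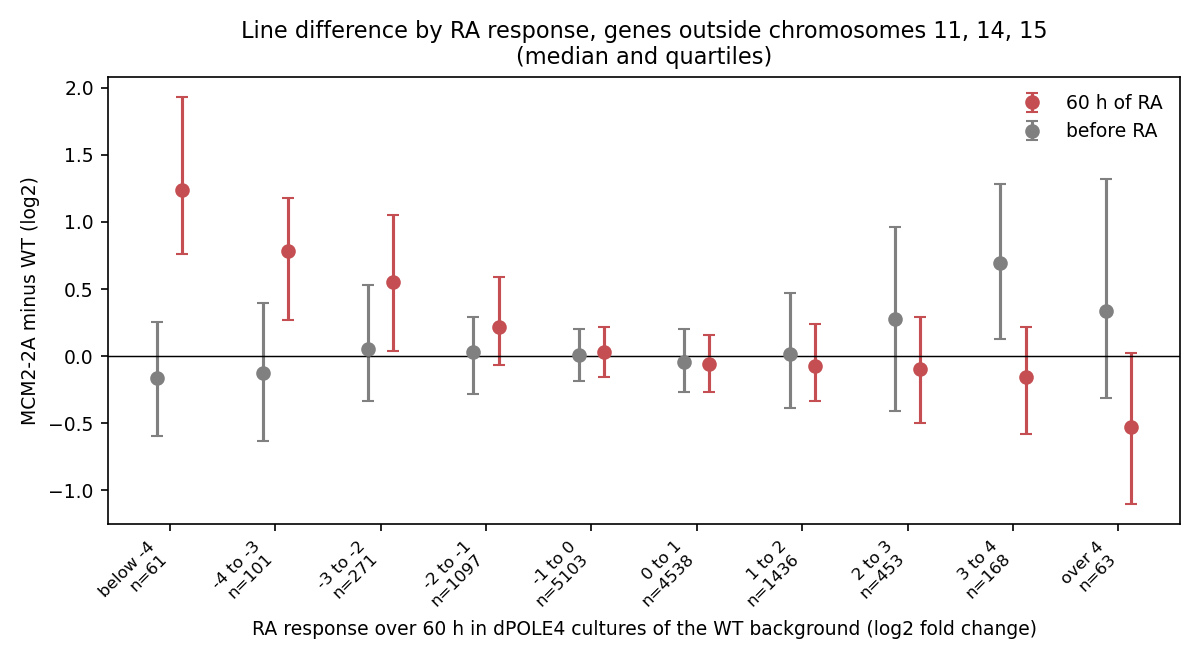
Log2 difference MCM2-2A minus WT (vertical axis; points are medians and bars the quartiles) at 60 h of RA (red) and before RA (grey), for genes outside chromosomes 11, 14 and 15 grouped by their log2 RA response over 60 h in dPOLE4 cultures of the WT line (horizontal axis, n genes per group). At 60 h the medians run from 1.24 in the most repressed group to -0.53 in the most induced group. Only genes tested at both times are included.

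Ligands and targets of Nodal, FGF and Wnt signalling were among the genes higher in MCM2-2A. Of 15 Nodal pathway genes tested outside the 3 chromosomes, 6 were higher and 1 lower. Nodal, the ligand, was at 12.3, 10.5 and 10.4 CPM in WT and at 40.6, 45.9 and 41.8 in MCM2-2A, a log2 difference of 1.94 ± 0.095 (SE, edgeR adjusted p = 2.48e-09). Lefty2, an antagonist and target of Nodal, was at 9.47, 5.63 and 6.42 CPM and at 60, 44.4 and 47, a difference of 2.76. Its coreceptor gene Tdgf1 differed by 1.81, and Inhbb, an activin subunit, by 1.71. The 1 gene lower was Smad3, a signal transducer of the pathway (-0.61), and without WT replicate 2 there were 0. For Lefty2, Tdgf1 and Inhbb the line difference was also present before RA (2.17, 1.13 and 1.26), and its change did not pass the thresholds. For Nodal it was 0.82 before RA and changed by 1.09 (edgeR adjusted p = 4.74e-06).

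Of 17 genes of FGF signalling and ERK feedback outside the 3 chromosomes, 4 were higher and 1 lower. Spry4, a feedback inhibitor of ERK signalling, was at 2.46, 2.27 and 2.55 CPM in WT and at 15.8, 11 and 11.6 in MCM2-2A (log2 difference 2.38 ± 0.18, SE, edgeR adjusted p = 1.46e-07). Fgf4, the FGF ligand of pluripotent cells, differed by 1.65 and Spred3, a further ERK inhibitor, by 1.11. Fgfr2, an FGF receptor, was lower, at 148, 153 and 167 CPM against 68.6, 70.5 and 75.3 (-1.13). The receptor gene Fgfr1, at 192 to 228 CPM in WT and 214 to 220 in MCM2-2A, was not called (0.09).

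Of 20 Wnt pathway genes outside the 3 chromosomes, 7 were higher and 2 lower. The strongest was Cdx1, a caudal homeobox gene that responds to Wnt and RA and activates posterior Hox genes. It was at 16.2, 10.7 and 9.63 CPM in WT and at 58.4, 56.4 and 50.2 in MCM2-2A, a log2 difference of 2.13 ± 0.14 (SE, edgeR adjusted p = 2.86e-08), and 2.72 ± 0.836 and 3.03 ± 0.785 CPM (SD) at T0. Its paralogue Cdx2 was at 2.76, 2.45 and 3.3 CPM and at 8.6, 7.54 and 6.89 (1.44), and the ligand gene Wnt8a at 1.92, 2 and 3.12 CPM and at 6.9, 5.6 and 6.53 (1.46). Both had been lower in MCM2-2A at T0 (-1.35 and -0.83). Of the same list, 3 genes were higher and 7 lower at T0. The change of the line difference was upward for 7 and downward for 2.

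**Figure D3:**
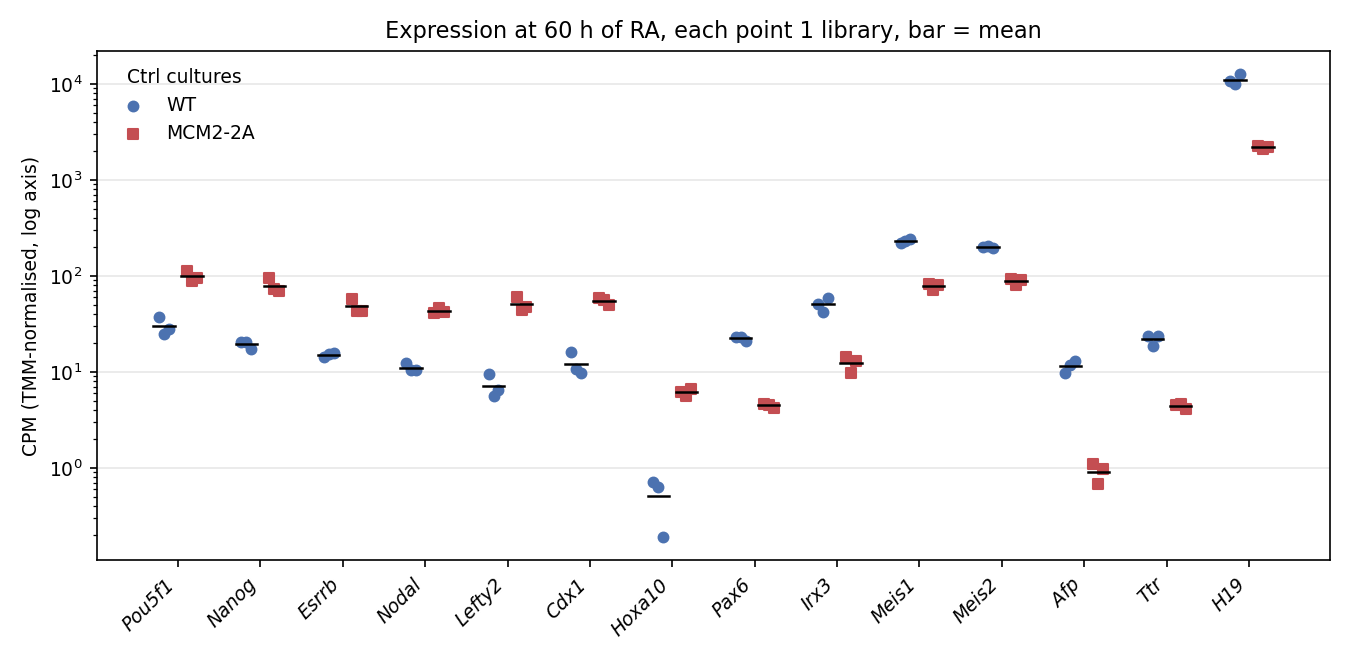
CPM on a log axis of 14 genes in each of the 6 libraries at 60 h of RA, WT as blue circles and MCM2-2A as red squares, with the mean as a bar. The libraries of the lines do not overlap for any of the genes shown. Pou5f1, Nanog, Esrrb, Nodal, Lefty2, Cdx1 and Hoxa10 lie higher in MCM2-2A, and Pax6, Irx3, Meis1, Meis2, Afp, Ttr and H19 lie lower.

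More genes of RA receptors and metabolism were lower than higher in MCM2-2A at 60 h. Of 18 genes of RA receptors and metabolism outside the 3 chromosomes, 1 was higher and 5 were lower at 60 h, whereas 6 were higher and 1 lower at T0, and the change passed the thresholds upward for 3 and downward for 7. Cyp26a1, the RA-degrading enzyme that RA itself induces, was at 272, 187 and 169 CPM in WT and at 255, 256 and 241 in MCM2-2A, overlapping and not called (0.25). Cyp26b1 (0.36) and Stra8, an RA target needed for meiosis (-0.15), were not called either. Dhrs3, which turns retinal back into retinol, was at 152, 128 and 126 CPM in WT and at 75.3, 73.1 and 72 in MCM2-2A (-0.89 ± 0.073, SE, edgeR adjusted p = 2.34e-07) and had been higher at T0 (1.38). Crabp1, a cytoplasmic RA carrier, was lower by -1.09 on the log2 scale, and the RA-making enzyme genes Aldh1a1 and Aldh1a2 by -2.07 and -1.11. Aldh1a3, a further such enzyme, was higher (2.00) on 3, 3 and 3 reads in WT against 24, 35 and 11, a call that DESeq2 did not make. The call was also lost without WT replicate 1 or 3. Of 6 early RA response genes, Lefty1 (0.94) and Lefty2 were higher, Sox1, a neural factor, was lower (-1.47), and Cyp26a1 and Sox3 were not called. The RA receptor genes that differed lie on chromosomes 14 and 15. Rarg (chromosome 15) was at 36.9, 31.7 and 29.7 CPM in WT and at 94.9, 89 and 89.2 in MCM2-2A (1.46), beyond the median of its chromosome, and Rarb (chromosome 14) at 52.2, 49.5 and 48.6 CPM and at 28.7, 35.1 and 35.9 (-0.60). Rarb lies outside the shifted stretch of chromosome 14, in a window from 15 to 20 Mb with a median of -0.09. The part of chromosome dose in the difference of Rarg was not tested.

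Hox genes give cells their position along the body axis and are activated in order of their place in the 4 clusters. They differed by paralog number and by cluster. The split by paralog number was chosen after the values were seen. Of 23 genes tested of paralog groups 1 to 8, 2 were higher and 9 lower in MCM2-2A (median -0.54). Of 10 genes of groups 9 to 13, 6 were higher and 1 lower (median 1.5). Because the HoxB and HoxC clusters lie on chromosomes 11 and 15, the clusters were also read apart. In HoxA and HoxD, on chromosomes 6 and 2, 2 of 11 genes of groups 1 to 8 were higher and 0 lower (median -0.12), and 4 of 5 genes of groups 9 to 13 were higher (median 1.57). The 2 higher genes of groups 1 to 8 were Hoxd3 (1.41) and Hoxd4 (1.42). In HoxD all 6 genes tested were positive, of low and high paralog number alike (median 1.42). HoxA had a median of -0.13. In HoxB and HoxC, 0 of 12 genes of groups 1 to 8 were higher and 9 lower (median -0.82), and 2 of 5 of groups 9 to 13 were higher and 1 lower. In HoxB alone, 0 of 10 genes were higher and 6 lower (median -0.71). HoxB lies on chromosome 11, where 46 of all 1387 genes were higher and 562 lower (median -0.55). Whether HoxB genes differ beyond their chromosome was not tested. HoxC genes of groups 4 to 8 were lower although the median gene of chromosome 15 was higher.

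Hoxa10 had the highest fold change of the genes named outside the 3 chromosomes. It passed the filter on low counts through the MCM2-2A libraries and left the test when 10 counts were required in every library. It had 12, 7 and 2 reads in WT and 130, 172 and 129 in MCM2-2A, a log2 difference of 3.46 ± 0.28 (SE, edgeR adjusted p = 1.9e-07). Hoxa9 was at 3.29, 2.18 and 1.98 CPM in WT and at 10.1, 11.2 and 9.85 in MCM2-2A (2.01), and Hoxd13 at 2.16, 0.817 and 1.32 CPM and at 4.49, 4.98 and 3.98 (1.57). These posterior genes were low in both lines. On chromosome 15, Hoxc13 (2.15) and Hoxc10 (1.82) were higher. Among anterior genes, Hoxb4, on chromosome 11, was at 62.4, 60.4 and 58.6 CPM in WT and at 29.5, 26.2 and 27.8 in MCM2-2A (-1.13 ± 0.075, SE, edgeR adjusted p = 3.66e-08). The number of Hox genes called higher, 8, was 5 when 10 counts were required in every library and 13 with no filter.

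**Figure D4:**
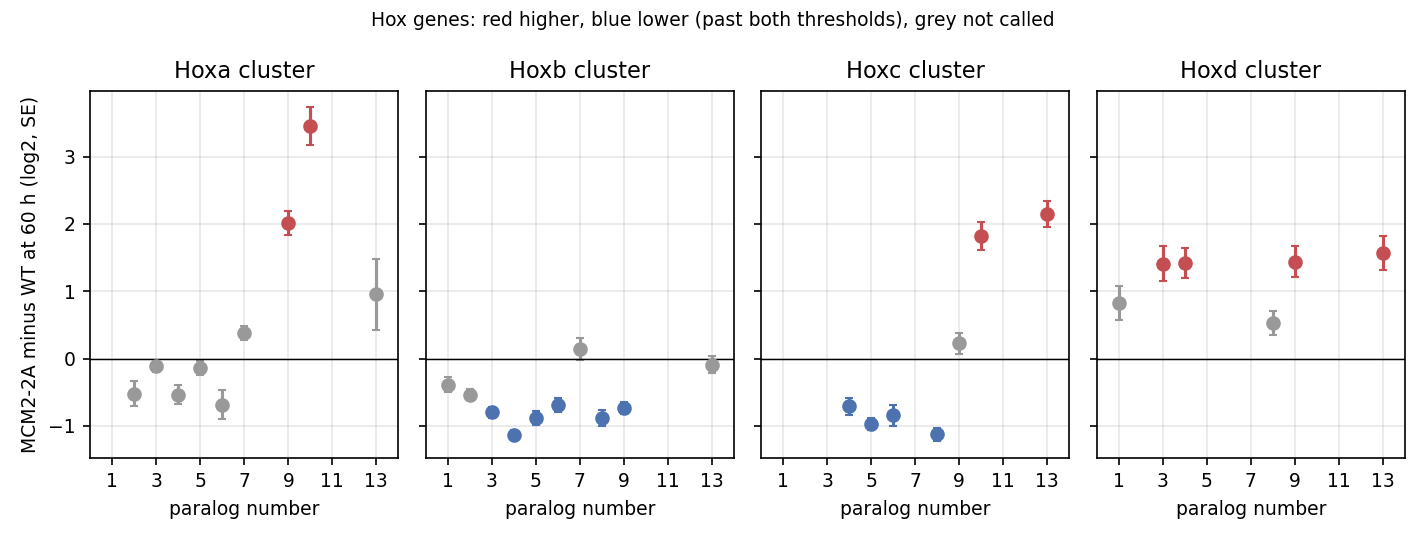
Log2 difference MCM2-2A minus WT at 60 h (vertical axis, with SE) for tested Hox genes by paralog number (horizontal axis) in the HoxA, HoxB, HoxC and HoxD clusters, red if higher, blue if lower and grey if not called. Groups 9 to 13 hold 6 of the 8 higher genes and groups 1 to 8 hold 9 of the 10 lower ones.

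Several cofactor genes of Hox proteins were lower in MCM2-2A. Meis and Pbx genes encode homeodomain proteins that bind DNA with Hox proteins, and of 8 tested outside the 3 chromosomes, 0 were higher, 4 were lower and 4 were not called. Meis2 was at 200, 205 and 196 CPM in WT and at 93.7, 80.9 and 91.4 in MCM2-2A (log2 difference -1.18 ± 0.065, SE, edgeR adjusted p = 6.81e-09). Pknox2 (-1.21) and Pbx3 (-0.64) were lower as well. Meis1, on chromosome 11, was at 220, 232 and 239 CPM and at 81.9, 70.5 and 80.6 (-1.57), beyond the median of its chromosome. Pbx2, at 132 CPM in each WT library and at 139, 131 and 139 in MCM2-2A, was not called.

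More neural progenitor genes were lower than higher in MCM2-2A. Of 21 tested outside the 3 chromosomes, 5 were higher and 8 lower (median -0.36). The summed level of all 28 list members there, tested or not, was 543.6 to 576.5 CPM in WT and 333 to 374 in MCM2-2A, without overlap. Pax6, a master regulator of the forebrain, eye and spinal cord, was at 22.9, 22.9 and 20.9 CPM in WT and at 4.63, 4.56 and 4.18 in MCM2-2A (log2 difference -2.32). The difference stood at T0 as well, with 8.14 ± 0.35 CPM (SD) in WT and 3.45 ± 0.222 in MCM2-2A. Irx3, which patterns the hindbrain and spinal cord, was at 50.4, 41.5 and 59.1 CPM and at 14.2, 9.74 and 12.9 (-2.05). The 5 higher genes were low in both lines. Among them, Zic1, a dorsal neural factor, had 28, 20 and 9 reads in WT and 114, 283 and 156 in MCM2-2A (2.34), and Pax7, which marks the dorsal neural tube and crest, had 6, 1 and 0 reads in WT and 34, 50 and 40 (3.22). With at least 10 counts required in every library, none of the 5 stayed in the test. Nes, the progenitor filament nestin, was at 278, 257 and 266 CPM and at 191, 213 and 224, below the fold threshold (-0.36). Of 13 neuron genes outside the 3 chromosomes, 1 was higher (Onecut2, 1.49) and 2 were lower (Gap43, a growth cone protein, -0.75, and Elavl4, a neuronal RNA-binding protein, -1.43). The call of Elavl4 was lost without WT replicate 1 or MCM2-2A replicate 1 or 2 (edgeR adjusted p up to 0.021). The 13 genes had a median of 0.33, and the summed level of the list outside the 3 chromosomes was 89.2 to 104.1 CPM in WT and 102.2 to 114.2 in MCM2-2A, with overlap.

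Lists of other lineages were split as well. Of 19 endoderm genes outside the 3 chromosomes, 4 were higher and 4 lower. The lower ones were genes of visceral endoderm and liver. Afp, the fetal serum protein alpha-fetoprotein, was at 9.82, 11.7 and 12.9 CPM in WT and at 1.09, 0.679 and 0.969 in MCM2-2A (log2 difference -3.68 ± 0.21, SE, edgeR adjusted p = 7.37e-09). Ttr, a carrier of thyroid hormone and retinol-binding protein, was at 23.6, 18.4 and 23.5 CPM and at 4.54, 4.66 and 4.08 (-2.30), Apoa1, an apolipoprotein, had 53, 22 and 32 reads against 5, 4 and 4 (-3.88), and Hnf4a, a hepatic nuclear receptor, differed by -0.91. Sox17, an early endoderm factor, was instead higher, at 35.6, 19.2 and 28.2 CPM in WT and at 69.7, 71.6 and 76.4 in MCM2-2A (1.36), as was Thbd, of parietal endoderm (1.65), and, on chromosome 14, Gata4 (1.63). The summed level outside the 3 chromosomes was 4478 to 5657 CPM in WT and 5738 to 6446 in MCM2-2A, higher without overlap, and the basement membrane genes Lamc1 and Col4a1 were not called.

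Of 14 mesoderm and primitive streak genes outside the 3 chromosomes, 2 were higher, both of the streak (Mixl1, 1.40, and Eomes, 0.94), and 5 were lower. These 5 were Kdr, the VEGF receptor of blood and vessel precursors (5.99, 8.71 and 7.65 CPM in WT against 2.83, 2.33 and 2.6, log2 difference -1.52), the blood factors Tal1 (-1.76) and Gata2 (-1.37), and Foxc1 and Twist1 of mesenchyme (-1.29 and -1.14). The call of Mixl1 was not made by DESeq2, and was also lost without WT replicate 1 or 2 or MCM2-2A replicate 2 or 3. Collagen genes of mesenchyme, from the adhesion list, were lower too. Col1a2 was at 167, 145 and 144 CPM and at 61, 41.2 and 50 (-1.60), and the mesenchymal cadherin gene Cdh11 differed by -1.48. Claudin 3, of epithelial tight junctions (Cldn3), was higher, at 6.77, 4.08 and 3.87 CPM against 17.8, 14.6 and 17.5 (1.69). Of 6 trophoblast genes outside the 3 chromosomes, 3 were higher (Cdx2, Plet1 and Eomes) and 2 lower. Of 9 neural crest genes, 1, Pax3, was higher (1.79), and Tfap2a (-1.50) and Tfap2b (-3.06), factors of crest and surface ectoderm, were lower. Pax3 left the test when 10 counts were required in every library. Of 19 BMP pathway genes, 2 were higher and 2 lower, and of 22 Notch and Shh pathway genes 4 were higher and 2 lower, with medians of 0.15 and 0.08. Without WT replicate 1 the Notch and Shh list had 2 higher and 1 lower. Over members outside the 3 chromosomes, the summed levels of the lines overlapped for mesoderm (846.6 to 961.4 and 729.1 to 888.8 CPM) and crest (131.3 to 157 and 142.3 to 160.1), but not for trophoblast (106.3 to 128 and 78.6 to 80.6). Their part in the other differences was not tested.

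**Figure D5:**
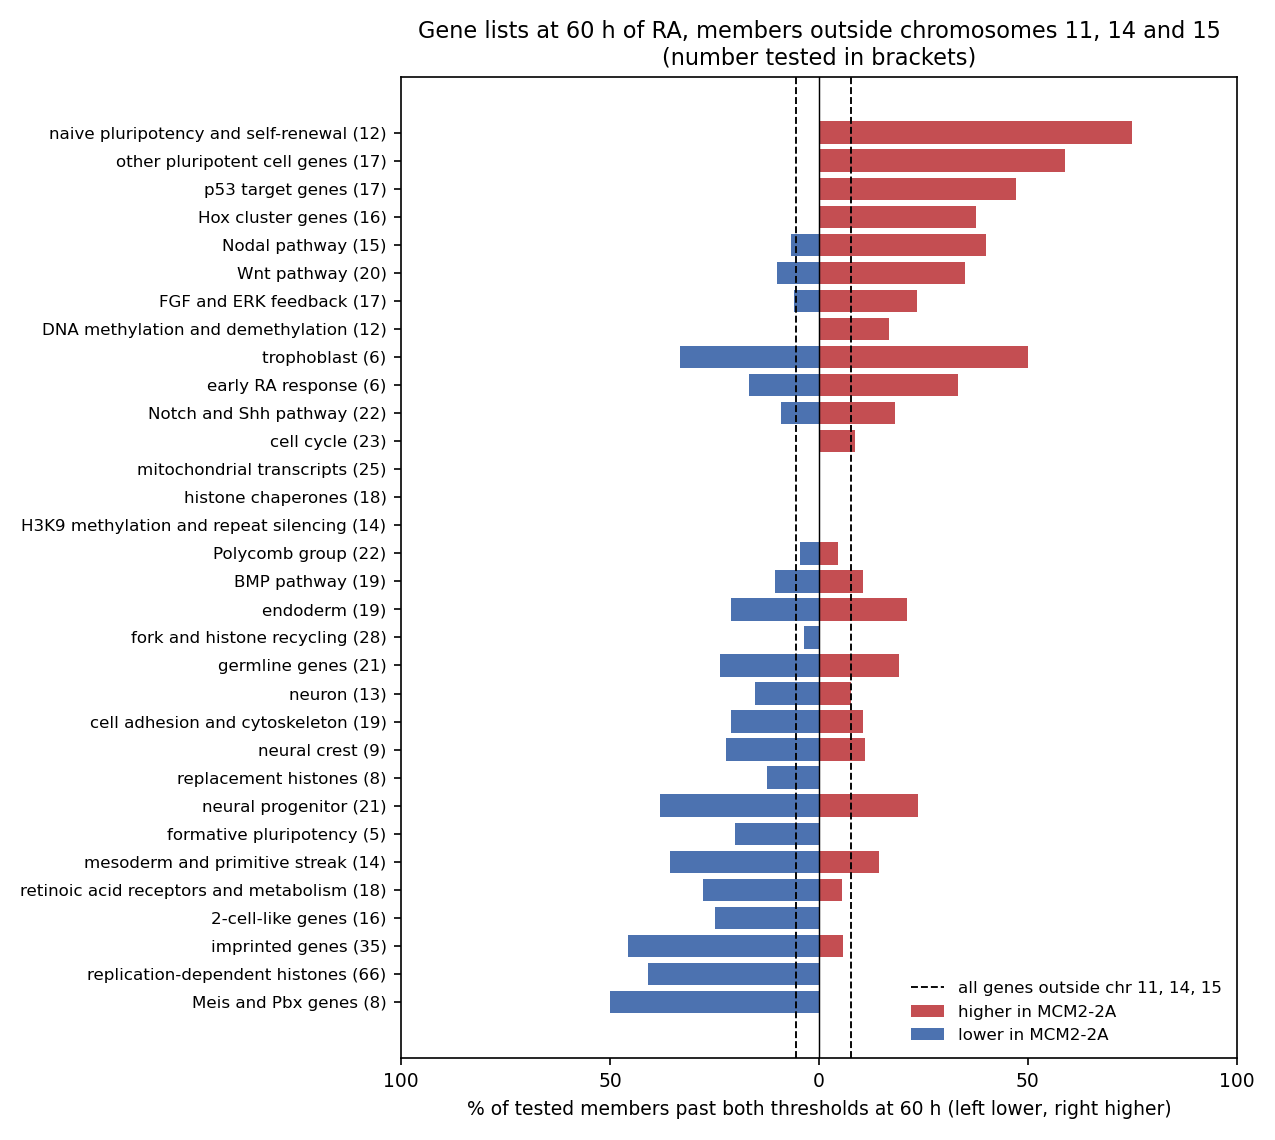
Share (%) of the tested members of each gene list that were DE at 60 h, higher in MCM2-2A to the right (red) and lower to the left (blue), for members outside chromosomes 11, 14 and 15, with the number tested in brackets. Dashed lines mark the shares among all genes outside these chromosomes, 7.68% and 5.58%.

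Imprinted genes, of which only the maternal or the paternal copy is expressed, were more often lower than higher in MCM2-2A. Of 35 tested outside the 3 chromosomes, 2 were higher, 16 lower and 17 not called (median log2 difference -0.41), whereas at T0 4 were higher and 8 lower. H19, a maternally expressed growth-restraining RNA (chromosome 7, 142575529 to 142578143 in GRCm38), was at 10640, 9855 and 12670 CPM in WT and at 2259, 2110 and 2187 in MCM2-2A. Its log2 difference was -2.34 ± 0.1 (SE, edgeR adjusted p = 6.93e-10). Before RA it stood at 245 ± 15.5 CPM (SD) in WT and at 309 ± 21.8 in MCM2-2A, and at 24 h at 750 ± 15.9 and 455 ± 53.9, so that H19 rose in both lines and less in MCM2-2A. The paternally expressed growth factor gene Igf2 beside it was at 212, 183 and 190 CPM and at 268, 273 and 259, a difference of 0.45 that did not reach the fold threshold. Plagl1, a zinc finger factor that regulates other imprinted genes, was at 164, 185 and 148 CPM and at 43.9, 46.6 and 43.2 (-1.89), and was lower by -2.56 on the log2 scale already at T0. The neighbours Usp29 (-1.51) and Peg3 (-0.83) were both lower. Maternally and paternally expressed genes were among those lower. Igf2r, the maternally expressed receptor that clears IGF2, was higher, at 103, 93.7 and 89.1 CPM in WT and at 201, 197 and 206 in MCM2-2A (1.07). The counts do not tell the 2 alleles apart.

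A part of the histone genes that are used during DNA replication was lower in MCM2-2A at 60 h. Of 66 replication-dependent histone genes tested outside the 3 chromosomes, 0 were higher, 27 lower and 39 not called (median log2 difference -0.51). At T0, 3 of them were higher and 0 lower. The sum over all 69 list members, on any chromosome and tested or not, was 9345 to 11640 CPM in WT and 6679 to 7227 in MCM2-2A. Hist2h3c1, an H3 gene, was at 14.1, 14.7 and 13.7 CPM and at 5.95, 9.29 and 7.29 (-0.90). On chromosome 11, Hist3h2a was at 193, 152 and 167 CPM and at 80.7, 69 and 77.7 (-1.18). The abundant Hist1h3e, at 352 to 478 CPM in WT and 251 to 290 in MCM2-2A (-0.57), and Hist1h1d (-0.49) fell just short of the fold threshold. The number of genes called lower was 29 of the 68 tested on any chromosome. It lay between 18, without WT replicate 1, and 36 under the alternatives. Hist1h2ap (-1.76) rested in part on WT replicate 2, at 21.1 CPM against 5.99 and 5.1 in the other two WT libraries. Without it the difference was -0.86, and DESeq2 did not call the gene. Many of these genes are near-identical copies between which reads can be shared. Of 23 cell cycle genes outside the 3 chromosomes, 2 were higher, the D-type cyclin gene Ccnd1 (1.25) and the CDK inhibitor gene Cdkn1a, and 0 were lower, and Mki67, a marker of cycling cells, did not differ by call (-0.02). Of 8 replacement histones, which are made independently of DNA replication, 1 was lower (H1fx, a linker histone, -0.82).

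Of 28 genes of the replication fork outside the 3 chromosomes, Mcm2 was the 1 called, and Pole3, the partner of Pole4, was not (0.31, edgeR adjusted p = 0.0222). On chromosome 14 Wdhd1, a polymerase alpha adaptor, differed by 1.15. Of 18 histone chaperone genes 0 were called, and the FACT subunit gene Supt16, on chromosome 14, was higher (0.98). Of 22 Polycomb genes, Mtf2 was higher (0.61) and Phf19 lower (-0.95), both accessory subunits of PRC2. Without MCM2-2A replicate 1 Mtf2 fell to 0.576, below the threshold. Of 14 genes of H3K9 methylation and repeat silencing 0 were called. Of 12 genes of DNA methylation, 2 were higher, Prdm14 and the de novo methyltransferase gene Dnmt3b, which was at 82.6, 72.2 and 86 CPM in WT and at 145, 125 and 136 in MCM2-2A (0.75 ± 0.075, SE, edgeR adjusted p = 1.75e-06).

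Some target genes of p53 were higher in MCM2-2A. Of 17 tested outside the 3 chromosomes, 8 were higher, 0 lower and 9 not called (median log2 difference 0.55), and at T0 6 were higher and 0 lower. Cdkn1a, the CDK inhibitor p21, was at 82.9, 80.5 and 83.6 CPM in WT and at 130, 140 and 152 in MCM2-2A (0.77 ± 0.066, SE, edgeR adjusted p = 3.77e-07), with no difference by call at T0 (-0.08). Btg2, an antiproliferative gene, was at 68.4, 58.3 and 70.9 CPM and at 115, 122 and 130 (0.89), Pmaip1, a proapoptotic BCL2 family member, differed by 0.88, and Perp, an effector of apoptosis and epithelial adhesion, by 0.82. Gdf15, a stress cytokine, had 8, 3 and 7 reads in WT and 28, 53 and 32 in MCM2-2A (1.72), and passed the filter on low counts through the MCM2-2A libraries.

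Genes of 2-cell-like cells, a rare state of mESC cultures that resembles the 2-cell embryo, were in part higher in MCM2-2A before RA and not at 60 h. Of the 16 features tested at 60 h, 8 were higher in MCM2-2A at T0, 0 lower and 7 not called (median 1.28). These T0 values cover only the features that were also tested at T0. At 60 h, 0 were higher, 4 lower and 12 not called (median -0.52). The change passed the thresholds downward for 10 and upward for 0. Zscan4c, a telomere regulator of this state, was at 5.02 ± 2.49 CPM (SD) in WT and 12.6 ± 2.72 in MCM2-2A at T0, and at 91.9, 74 and 69.3 CPM against 60.8, 47.9 and 46.2 at 60 h, so that it rose in both lines and more in WT. Its log2 difference at 60 h was -0.61 ± 0.11 (SE, edgeR adjusted p = 0.000403), close to the fold threshold, and the number called lower was 2 without WT replicate 1 and 10 without MCM2-2A replicate 1. The endogenous retrovirus MERVL-int, expressed in the same state, was at 5300, 4768 and 4399 CPM in WT and at 4526, 3205 and 3221 in MCM2-2A, overlapping and not called. Reads of the Zscan4 copies may be shared between them.

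Of 21 germline genes outside the 3 chromosomes, 4 were higher and 5 lower. Without WT replicate 1 or MCM2-2A replicate 2 or 3, 2 were higher. Tuba3b, a testis alpha-tubulin, was at 13.7, 10.1 and 10.7 CPM in WT and at 1.51, 0.744 and 1.12 in MCM2-2A (log2 difference -3.41), and Fkbp6, of the piRNA pathway, at 11.4, 9.62 and 12.1 CPM and at 4.44, 2.69 and 3.06 (-1.73). Sycp3, of the meiotic chromosome axis, was higher (2.39). X-linked genes were among the 12 largest decreases. Xlr4a was at 6.41, 5.54 and 6.42 CPM and at 0.472, 0.776 and 0.561 (-3.29), and Xlr4b, a near-identical copy, differed by -3.03. Nxf3, an RNA export factor, differed by -3.35.

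Y-linked genes were among the largest decreases, as was the X-linked germline gene Rhox2a (-4.22), and were lower before RA. Ddx3y, an RNA helicase, was at 47.5, 54.7 and 49.2 CPM in WT and at 2.69, 2.46 and 2.6 in MCM2-2A (log2 difference -4.29), Uty, a histone demethylase homologue, differed by -4.09, and Eif2s3y, a translation factor, by -2.84. Kdm5d had 22, 30 and 30 reads in WT and 0, 0 and 1 in MCM2-2A. The median of 11 Y-linked genes was -2.84 at 60 h, and that of 10 was -3.09 at T0. These values are of the line and not of its RA response.

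The other largest increases under the rule for named genes were in genes of varied function. Alppl2, an alkaline phosphatase of embryonic cells, had 23, 12 and 11 reads in WT and 327, 361 and 208 in MCM2-2A (log2 difference 3.38), and was higher before RA as well (2.32). Mmp9, a matrix metalloproteinase, was at 4.61, 3.72 and 4.63 CPM and at 25.9, 29.1 and 23.9 (2.60), with 1.81 at T0. Fbp2, a gluconeogenic enzyme, was at 2.76, 3.08 and 2.83 CPM and at 17, 14.3 and 16.8 (2.47), and Ckmt1, a mitochondrial creatine kinase, at 3.12, 3.72 and 2.27 CPM and at 17, 18.1 and 18.1 (2.53). Per2, of the circadian clock (2.48), Csn3, a casein (2.50), Trim43a, a gene of preimplantation embryos (2.53), Dscaml1, a neuronal adhesion molecule (2.94), and Actg2, a smooth muscle actin (3.15), completed this set. Among the decreases, Hapln1, a link protein of the extracellular matrix, was at 15.7, 18.2 and 9.35 CPM in WT and at 1.23, 1.17 and 0.918 in MCM2-2A (-3.70), and Tnni2, a troponin of fast muscle, at 15.9, 10.3 and 19.8 CPM and at 2.36, 1.97 and 2.24 (-2.82). For all of these genes the libraries of the lines did not overlap, as the rule required.

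Repeat subfamilies were more often higher than lower. Of 824 tested, 47 (5.7%) were higher and 10 (1.21%) lower in MCM2-2A. Among genes outside the 3 chromosomes these shares were 7.68% and 5.58%, so repeats were not called higher more often than genes. The median log2 difference of repeats was 0.30, whereas at T0 the median of 880 was -0.17. The median was positive at 60 h for LINE (0.36 over 135), LTR (0.25 over 492), SINE (0.33 over 35) and other subfamilies (0.40 over 162). The difference was positive for 92.6%, 78%, 100% and 90.1% of these, most of them not called. RLTR45-int, an endogenous retrovirus, was at 23.3, 23.1 and 20.2 CPM in WT and at 106, 91.8 and 81.4 in MCM2-2A, a log2 difference of 2.06 ± 0.1 (SE, edgeR adjusted p = 2.48e-09). It had been lower in MCM2-2A at T0 (-0.61) and fell in WT from 185 ± 21.1 CPM (SD) at T0 to 22.2 ± 1.75 at T60. MMERGLN-int, a gammaretrovirus-like element, was at 116, 125 and 108 CPM and at 375, 387 and 374 (1.70), and was also higher at T0 (0.95). The young LINE-1 subfamily L1Md_A was at 703, 715 and 677 CPM and at 1200, 1122 and 1117 (0.71). IAPEy-int and IAPEY_LTR, retroviral elements of the IAP class, were lower (-1.85 and -1.34). The class was not lower throughout: IAPEY4_I-int was lower (-1.07), IAPLTR3-int was higher (1.30) and IAPEz-int was not called (-0.14). IAPEy-int was lower at T0 as well (-1.845), and IAPEY_LTR was not called there (-0.44). Some calls rested on 1 library. MERV1_LTR was at 1.08, 2.09 and 1.32 CPM in WT and at 3.78, 215 and 3.21 in MCM2-2A (5.71), and differed by 1.26 without MCM2-2A replicate 2. Its call was lost without any 1 of the WT libraries (edgeR adjusted p up to 0.0374). X7B_LINE (-1.44) fell to -0.68 without WT replicate 1, at an edgeR adjusted p of 0.08, ORSL-2a (1.84), on 1 to 3 reads in WT, was not called by DESeq2, and B1_Mm, at 528, 651 and 1043 CPM in MCM2-2A, fell to 0.49 without replicate 3 of that line, below the fold threshold. Mitochondrial transcripts were at 0 calls of 25 (edgeR).

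On chromosomes 11, 14 and 15, single genes departed further than their chromosome. Ltb4r2, a leukotriene receptor on chromosome 14, had 12, 7 and 5 reads in WT and 130, 259 and 128 in MCM2-2A (log2 difference 3.48), and Tgm1, a transglutaminase beside it, was at 11.7, 11.4 and 11.8 CPM and at 68.9, 86.3 and 79.2 (2.74 ± 0.098, SE, edgeR adjusted p = 1.51e-10). Mapk8ip2, a JNK scaffold on chromosome 15, was at 5.63, 5.26 and 5.38 CPM and at 30, 28.7 and 24.5 (2.35), and Myh13, a muscle myosin on chromosome 11, differed by 2.64 against the direction of its chromosome. The largest decreases were on chromosome 11. Ddc, the enzyme that makes dopamine and serotonin, was at 52.1, 51.5 and 63.5 CPM and at 10.9, 10.2 and 11.7 (-2.36), and Ccdc42 (-2.62), Fbxo47 (-2.50) and Pitpnm3 (-2.37) were lower as well. For Ddc the difference was -2.03 before RA, and for Pitpnm3 it was -0.37 there.

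The line difference at 60 h was in part that seen before RA. Outside the 3 chromosomes 13369 genes were tested at both times, in separate libraries of the same lines. Of these, 676 were DE in the same direction, which is 39.3% of the 1719 called at 60 h and 32.6% of the 2076 called at T0, and 93 were DE in opposite directions. Among genes higher at 60 h, 55 were lower at T0 with a change past the thresholds, and among genes lower at 60 h, 38 were higher at T0 with such a change. The change of the line difference was called for 749 genes upward (4.76%) and 695 downward (4.41%) of 15746. Without MCM2-2A replicate 2 at T60 the number downward was 456.

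The difference between the lines was also measured in cultures in which POLE4 had been degraded with dTAG, at the same 60 h. There, 1496 genes outside the 3 chromosomes were higher (10.2%) and 1061 lower (7.23%) of 14673. No library is shared with the Ctrl cultures. Of 14269 genes tested in both, 1483 were DE in the same direction, 78.1% of the 1898 called in Ctrl and 60.3% of the 2459 called with dTAG, and 0 in opposite directions. The log2 difference of Pou5f1, Nanog and Esrrb there was 2.14, 2.08 and 2.27, that of Jam2 2.72, of Cdx1 2.43, of Hoxa10 3.12 and of H19 -2.07. Of the naive genes 10 of 12 were higher and 0 lower. Some groups had other counts of calls. With dTAG, 49 of 66 replication-dependent histone genes were lower, and 3 of the 2-cell-like features were higher and 0 lower. Both comparisons use the same 2 clones, so neither separates the mutation from the clone.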

How the data were processed

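RNA of 60 samples was sequenced after rRNA depletion with a stranded kit. The authors trimmed reads with cutadapt 4.2, aligned them to mm10 with STAR keeping multimapping reads, counted genes and repeats with TEcount and deposited raw counts that are not normalized. Samples were grouped by their labels, and the 6 libraries of both Ctrl lines at T60 were compared. Features with enough counts (filterByExpr, minimum 10 in a library of median size and 15 in all) were scaled by TMM and tested with edgeR 4.0.16 in R 4.3.3 (limma 3.58.1), with DESeq2 1.42.0 as an alternative. DE meant a Benjamini-Hochberg adjusted p below 0.01 and a log2 fold change over 0.58 in size. CPM came from TMM factors over 24 Ctrl libraries of both lines and all times, fold changes from each comparison's own fit. The fit was tested on simulated counts.

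Members and lists were chosen with earlier results of these data known. Named genes were Pole4 and Mcm2, the 12 protein-coding DE genes with the largest change in each direction outside chromosomes 11, 14 and 15 (mean of at least 2 CPM, no overlap between the lines), 4 in each direction on these chromosomes, 4 repeats in each direction, 5 changes in each direction, and from each list up to 5 DE and 2 other members. Dhrs3, Foxc1, Gata2, Hnf4a, Hoxb4, Igf2, Igf2r, Irx3, Kdm5d, Peg3, Pole3, Rarb, Smad3, Sox17, Sox3 and Twist1 were named after their values were seen. Repeat classes were assigned by name. Positions came from GENCODE for GRCm38, and 34 tested genes without one (4 DE) were kept out of the counts outside these chromosomes. Near-identical copies share reads, so counts of single copies are uncertain. Some list members are counted but not reported here by name, and 1 Hox gene is left out of its plot.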

Additional observations from a re-analysis of the deposited data

Results flagged for a closer look

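The change of the line difference between 0 and 60 h was tested as an interaction, and 1444 genes outside chromosomes 11, 14 and 15 passed the thresholds (edgeR). The largest changes upward began with genes that were lower in MCM2-2A before RA. Sp5, a Wnt target, changed by 5.84 on the log2 scale, from 16.5 CPM in WT and 0.625 in MCM2-2A at T0 to 6.37 and 13.9 at T60, so that its direction turned (-4.79 and 1.07). Pcdh7, a protocadherin, changed by 4.58, from 2.35 and 0.177 CPM to 11.5 and 17.8. Its difference at 60 h (0.63) was not called without WT replicate 1 or 3 or MCM2-2A replicate 2 or 3 (edgeR adjusted p up to 0.0338). Slc39a8, a metal transporter (4.08), Ltb, a lymphotoxin (3.82), and Ppp4r4, a phosphatase subunit (3.81), were lower in MCM2-2A at T0 and not called at T60.

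Downward, Ttr changed by -6.92, a value that depends on the prior count because Ttr had 0 counts in the WT libraries at T0. It stood at 21.8 CPM in WT and 4.42 in MCM2-2A at T60. AF067061 changed by -4.46, from 0.113 and 0.756 CPM to 5.93 and 2.06. Rhobtb1 changed by -3.65, from 0.789 and 6.2 CPM to 15.8 and 10.2, and was higher at T0 (2.97) and lower at T60 (-0.64). The latter call was lost without WT replicate 3 or MCM2-2A replicate 2, with a lowest size of -0.57. Grifin changed by -3.65, from 0.0565 and 0.326 CPM to 12.7 and 5.39. Daam2, a formin of Wnt signalling, changed by -3.62, from 0.161 and 0.306 CPM to 8.36 and 1.31. For AF067061, Grifin and Daam2 both lines were near the floor at T0, so the T0 part of their changes rests on few reads.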

How the results depend on the processing

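Of the 3051 features DE at 60 h (1930 genes outside chromosomes 11, 14 and 15), none that could be tested changed direction under any alternative, and the scalings, filters and replicate block moved the median of all features at 60 h by at most 0.0232. DESeq2 called 2817 (1743), DESeq2 size factors 3064 (1937), testing all counted features 3515 (2281), requiring 10 counts in each library 2603 (1574), all 4 T60 groups in the fit 3176 (2005), and leaving out the 3 chromosomes 1869 outside them. Without a fold cutoff the counts were 5446 (3705) at 60 h, 6046 (4421) at T0 and 5862 (4205) in dTAG cultures, and against a 1.5-fold change (glmTreat) 1084 (663), 1287 (847) and 1535 (1037), with 545 (449) for the change between times. Leaving out 1 library gave 2651 to 2983 (1618 to 1878) at 60 h, 2850 to 3267 (1862 to 2185) at T0, 1382 to 1809 (1134 to 1439) for the change, 3149 to 4036 (2121 to 2820) in dTAG cultures and 8627 to 9456 (7044 to 7713) for the RA response.

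Same-numbered samples of the lines at 60 h correlated at 0.13, 0.135 and 0.0367 in their deviations from the group mean. Samples with different numbers were not compared, so whether the numbers pair the samples was not tested. With the number as a replicate block 3138 (1990) were DE at 60 h.

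The genes that changed sign were not DE. Trim28 was at 0.00405 with TMM outside the 3 chromosomes, 0.0216 unfiltered, 0.0205 under the stricter count minimum and 0.00259 with the replicate block. Over left-out libraries, Trim28 ranged from -0.056 to 0.0771, Pknox1 from -0.0212 to 0.119, Ina from -0.11 to 0.0683, Id3 from -0.0125 to 0.149, Ccng1 from -0.112 to 0.0458, Ehmt2 from -0.0944 to 0.00133, H2afz from -0.0156 to 0.051, Mki67 from -0.107 to 0.0142, mt-Co1 from -0.0413 to 0.179 and mt-Rnr2 from -0.201 to 0.535. The cause was not tested.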
